A study of Mus musculus with 20 samples.

Results

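Bdnf, Ntf3, Ntrk2, Ntrk3, Ngfr and Sort1 encode neurotrophin ligands and the receptors that bind them, and they made up 6 of the 39179 genes counted by RNA sequencing in mouse striatum. They were taken as the genes whose Ensembl identifier carries one of these 6 symbols. The mice were males of about 6.5 months from generation 17 of a breeding experiment that started from an inter-cross of inbred strains. The High-Active line had been selected for distance travelled in the home cage, and the Control line came from the same founders. Each line contributed 10 mice. In each, 5 mice received d-amphetamine sulfate at 0.25 mg/kg into the peritoneum and 5 received saline, and the whole bilateral striatum was taken 2 hours later. This gave 4 groups, named below by line and injection. Every mouse had been video-tracked in its home cage before the injection. With 1 High-Active line, a difference between lines from selection and one from drift cannot be told apart. The recorded parents put the Control mice in 8 families and the High-Active mice in 5, and 9 High-Active mice shared both parents with another.

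Neurotrophins are secreted growth factors of neurons. They are made as precursors that proteases cut to the mature form. Mature BDNF acts mainly on the receptor tyrosine kinase TrkB, the product of Ntrk2, and mature NT-3, the product of Ntf3, acts mainly on TrkC, the product of Ntrk3. The precursors bind p75NTR, the product of Ngfr, together with the sorting receptor sortilin, the product of Sort1. Sortilin also directs BDNF into secretory vesicles. The striatum is known to receive most of its BDNF protein along axons from cortex and midbrain, while striatal projection neurons carry TrkB. In the adult basal forebrain, p75NTR is a known marker of cholinergic neurons.

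In the GRCm38 annotation all 6 are protein-coding genes. Bdnf (ENSMUSG00000048482) spans chr2:109674700-109727007 on the plus strand. Ntf3 (ENSMUSG00000049107) spans chr6:126101412-126166910 on the minus strand. The receptor genes Ntrk2 (ENSMUSG00000055254) and Ntrk3 (ENSMUSG00000059146) lie at chr13:58806569-59133970 on the plus strand and at chr7:78175959-78738012 on the minus strand. Ngfr (ENSMUSG00000000120) lies at chr11:95568818-95587735 on the minus strand and Sort1 (ENSMUSG00000068747) at chr3:108284082-108361511 on the plus strand. The values count every read over a gene's exons, so the full-length and truncated forms of TrkB and TrkC, and the alternative first exons of Bdnf, are summed. Sort1 shares exon bases with the antisense gene Gm12523, and the strand setting of the counting is not given in the sources used here, so reads of that pair cannot be told apart.

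Promoter windows of RefSeq (GRCm38.p6, 250 bases before to 50 after each start) held 7 starts of Bdnf, 2 of Ntf3, and 1 each of Ntrk2 and Ngfr. Bdnf and Ngfr were the members whose level differed most between mice at a tested level, so 1 window of each is shown, 5′ to 3′ in the direction of the gene. The Bdnf window is the one of 7 that held a match to the CRE-like letters TCACGTCA, a known site of calcium-dependent Bdnf transcription. That match, in capitals, begins 38 bases before the start. In the Ngfr window the capitals mark the 4 matches to the GC box GGGCGG. Both strands were searched.

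Bdnf, chr2:109692186-109692485, plus strand: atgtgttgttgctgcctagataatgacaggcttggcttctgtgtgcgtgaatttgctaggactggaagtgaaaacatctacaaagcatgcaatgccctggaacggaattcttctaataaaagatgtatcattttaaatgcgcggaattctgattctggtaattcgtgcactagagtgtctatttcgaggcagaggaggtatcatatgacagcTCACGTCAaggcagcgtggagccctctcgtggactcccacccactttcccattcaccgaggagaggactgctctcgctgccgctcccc

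Ngfr, chr11:95587649-95587948, minus strand: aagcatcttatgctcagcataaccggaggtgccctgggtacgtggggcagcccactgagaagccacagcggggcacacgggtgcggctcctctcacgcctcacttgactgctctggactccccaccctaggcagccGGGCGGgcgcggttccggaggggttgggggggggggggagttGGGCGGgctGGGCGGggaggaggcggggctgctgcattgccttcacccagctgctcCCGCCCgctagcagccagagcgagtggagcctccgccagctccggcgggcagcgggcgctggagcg

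Of 32851 windows of this length, 0.441% held TCACGTCA, 1.79% the full CRE TGACGTCA, 7.15% the E-box CACGTG and 35.7% the GC box. No member window held TGACGTCA. The E-box was present in 1 Ntf3 window, and the GC box in 2 Bdnf windows, both Ntf3 windows, the Ntrk2 window and the Ngfr window. GC content was 71.7% in the Ngfr window and 48.7% in the Bdnf window shown. Counts per gene do not say which start was used.

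Sort1 and Ntrk2 were far more abundant than the other 4 genes. The counts of a gene scaled to a common library total (CPM), divided by the length of the merged exons, were on average over 20 mice 62.5 CPM per kilobase for Sort1, 34.1 for Ntrk2, 2.69 for Ngfr, 1.69 for Ntrk3, 1.62 for Bdnf and 0.254 for Ntf3. Sort1 was above Ntrk2 in 20 of 20 mice, Ntrk2 above Ngfr in 20 and Bdnf above Ntf3 in 20. The neighbours in the middle of this order were not separated, since Ngfr exceeded Ntrk3 in 14 mice and Ntrk3 exceeded Bdnf in 13. Merged exons include long ends that not every transcript uses, so these per-length levels are approximate, most of all for Ntrk2 and Ntrk3. Without division by length, Ntrk2 had the higher mean (657.6 CPM, against 473.4 for Sort1), and Ntrk3 (50.8) was above Bdnf (10.1) and Ngfr (9.27). The mean CPM of Ntrk2 was above that of 99.1% of the 14792 genes tested, and that of Sort1 above 98.4%. Ntrk3 lay above 69.7%, and Bdnf and Ngfr above 33.1% and 31.8%.

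Of the 6 genes, 5 passed the filter on low counts (over 1 CPM in at least 3 mice). Ntf3 was over 1 CPM in 0 mice and was not tested. For the tests, edgeR's quasi-likelihood fit gave each group a mean, and a gene was called at a false discovery rate (FDR) under 0.1 over all 14792 genes. For the line difference, 0 of the 5 were called, against 14.5% of all genes tested (7.63% higher and 6.9% lower in High-Active mice), and 0 had an unadjusted p under 0.05, against 26.1%. DESeq2 and edgeR's likelihood-ratio test with robust dispersions also called 0 for line, where they called 19.0% and 15.3% of all genes. For amphetamine, 0 of the 5 were called, against 0.0% of all genes, and 2 (Bdnf and Sort1) had an unadjusted p under 0.05, against 12.5%. DESeq2 called both of these for amphetamine, where it called 2.64% of all genes, and the likelihood-ratio test called Bdnf, where it called 3.1%. For the line-by-amphetamine interaction, 0 were called by any of these 3 tests, against 0.0%, 0.0% and 0.0406% of all genes, and 0 had an unadjusted p under 0.05 in the quasi-likelihood fit, against 2.97%.

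**Figure D1:**
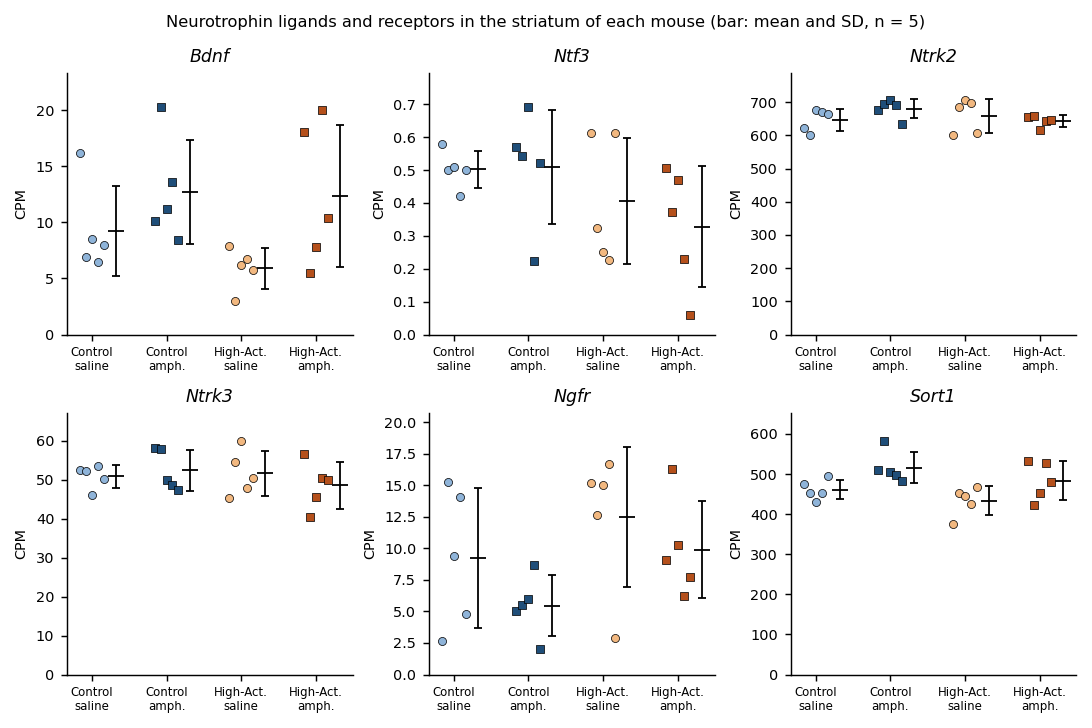
CPM of the 6 genes (y axis, linear from 0) in each of the 4 groups, 1 point per mouse, with the group mean and SD beside the points. Ntrk2 stayed between 600.4 and 706 CPM in all mice, whereas Bdnf ran from 3.01 to 20.3 and Ngfr from 2.02 to 16.7.

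Bdnf, the ligand of TrkB, was the one ligand gene among the 6 that passed the filter. Control saline mice had 6.48, 6.95, 8.00, 8.55 and 16.2 CPM. Control amphetamine mice had 8.47, 10.1, 11.2, 13.6 and 20.3 CPM. High-Active saline mice had 3.01, 5.77, 6.18, 6.77 and 7.92 CPM, the lowest group in the study. High-Active amphetamine mice had 5.48, 7.84, 10.4, 18.0 and 20.0 CPM. The groups overlapped, with 9 of 10 amphetamine-treated mice above the median of the saline-treated mice and 3 above the highest of them. Group means were 9.24 ± 3.98 (SD, n = 5), 12.7 ± 4.63, 5.93 ± 1.82 and 12.4 ± 6.36 CPM in the order of the groups above. Behind these values stood 121 to 958 Bdnf reads per mouse.

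Amphetamine-treated mice had a fitted Bdnf level 1.70-fold that of saline-treated mice over both lines. The log2 fold change was 0.76 (SE 0.246, 95% interval 0.25 to 1.28), with an unadjusted p of 0.00594 and an FDR of 0.228. DESeq2 gave 0.76 with an adjusted p of 0.0805, and the likelihood-ratio test 0.73 with 0.0236, and over all alternatives tried the adjusted p ran from 0.0236 to 0.981. Leaving out each mouse in turn moved the value between 0.64 and 0.91, and without High-Active amphetamine mouse 415, the mouse of that group with the lowest Bdnf, Bdnf was called (0.85, FDR 0.0859), as were 2.3% of all genes. Within the Control line the difference was 0.46 (SE 0.346, FDR 0.839), and within the High-Active line 1.06 (SE 0.350, FDR 0.393), where 0.0% of all genes were called in each. The test of the difference between those responses gave 0.60 with an interval of -0.42 to 1.63 and an unadjusted p of 0.235.

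Between the lines, Bdnf was 0.79-fold in High-Active relative to Control mice. The log2 fold change of -0.34 (SE 0.245, FDR 0.404) had an interval of -0.85 to 0.17. In saline-treated mice alone it was -0.64 (FDR 0.357), with 3 of 5 High-Active mice below every Control mouse, and in amphetamine-treated mice alone -0.04 (FDR 0.975). Summing counts over mice with the same parents gave -0.04 (FDR 0.96). Bdnf was not called for line in any of these comparisons. Of all genes, 14.5% were called over both treatments, 3.74% in saline-treated mice and 1.3% in amphetamine-treated mice. Family sums called 609 of 14792.

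Ntf3, the ligand of TrkC, had few reads. Between 3 and 27 reads per mouse fell on it. Control saline mice had 0.421 to 0.580 CPM (median of 5 mice 0.5), and Control amphetamine mice had 0.223, 0.522, 0.541, 0.570 and 0.690 CPM. High-Active saline mice had 0.228, 0.252, 0.323, 0.611 and 0.613 CPM, and High-Active amphetamine mice had 0.0606, 0.230, 0.371, 0.469 and 0.508 CPM. Control mice were mostly near 0.5 CPM and High-Active mice were spread more widely, with overlap. In saline-treated mice, 2 of 5 High-Active mice lay above every Control mouse and 3 below every one. In amphetamine-treated mice, 0 lay above and 1 below. A fit without the low-count filter gave a line log2 fold change of -0.46 (SE 0.287, FDR 0.398), an amphetamine value of -0.15 (FDR 0.992) and an interaction of -0.32 (FDR 1.00). No difference in Ntf3 was called, and the interval of its line value ran from -1.06 to 0.13.

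Ntf5, which encodes NT-4, the other ligand of TrkB, had at most 0.171 CPM and was not tested.

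Ntrk2, the TrkB gene, had the steadiest level of the 6. Control saline mice had 600.4, 623.5, 664.9, 670.1 and 677.3 CPM, and Control amphetamine mice had 635.4, 676.9, 690.5, 695.7 and 706.0 CPM. High-Active saline mice had 601.3, 605.9, 685.0, 697.6 and 705.3 CPM, and High-Active amphetamine mice had 615.1, 642.3, 646.0, 656.5 and 657.0 CPM. All groups overlapped, and the SD over 20 mice was 5.34% of the mean. The log2 fold change was -0.03 for line (interval -0.10 to 0.05, FDR 0.666), 0.02 for amphetamine (interval -0.06 to 0.10, FDR 0.87) and -0.11 for the interaction (interval -0.26 to 0.04). Differences in total Ntrk2 reads larger than these bounds lie outside the intervals. Astrocytes are known to carry mainly truncated TrkB, and the summed level of 6 astrocyte markers, none at 0 in any mouse, was 3461 to 4294 CPM over all mice. Of these 6 markers, 3 were called for line, against 14.5% of all genes tested. Aldh1l1 at 0.32 (FDR 0.012) and Gja1 at 0.19 (FDR 0.0352) were higher and Slc1a2 at -0.12 (FDR 0.0988) lower in High-Active mice. Their part in the Ntrk2 level was not tested.

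Ntrk3, the TrkC gene, ranged from 40.3 to 60.0 CPM. Group means were 50.8 ± 2.94 (SD, n = 5) in Control saline, 52.4 ± 5.18 in Control amphetamine, 51.6 ± 5.80 in High-Active saline and 48.5 ± 6.03 in High-Active amphetamine mice. These means lay between 48.5 and 52.4 CPM, beside an SD of 4.94 CPM over all 20 mice. The line log2 fold change was -0.04 (interval -0.17 to 0.09, FDR 0.709), that for amphetamine -0.02 (interval -0.15 to 0.11, FDR 0.913) and the interaction -0.13 (interval -0.39 to 0.13).

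Ngfr, the p75NTR gene, varied as widely as Bdnf. Control saline mice had 2.66, 4.81, 9.36, 14.1 and 15.2 CPM. Control amphetamine mice had 2.02, 5.06, 5.54, 5.98 and 8.71 CPM. High-Active saline mice had 2.86, 12.6, 15.0, 15.2 and 16.7 CPM. High-Active amphetamine mice had 6.22, 7.73, 9.05, 10.3 and 16.3 CPM. All groups overlapped, and 9 of 10 High-Active mice were above the Control median while 1 of 10 amphetamine-treated mice was above the saline median. High-Active saline mouse 886 lay apart from the other 4 of its group at 2.86 CPM.

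The fitted Ngfr level in High-Active mice was 1.56-fold that in Control mice. The line log2 fold change was 0.64 (SE 0.331, interval -0.05 to 1.34), with an unadjusted p of 0.0668 and an FDR of 0.227. Without mouse 886 it was 0.77 and Ngfr was called at an FDR of 0.099, as were 16.6% of all genes. Over the other alternatives it was not called, up to an FDR of 0.844. Within saline-treated mice it was 0.43 (FDR 0.674) and within amphetamine-treated mice 0.86 (FDR 0.463), where 3.74% and 1.3% of all genes were called. The amphetamine log2 fold change was -0.55 (SE 0.331, interval -1.24 to 0.15, FDR 0.516), and the interaction was 0.42 (interval -0.96 to 1.81).

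Sort1, the sortilin gene, showed a small difference with treatment that was similar in size in each line. Control saline mice had 430.5, 451.9, 453.2, 474.3 and 494.0 CPM, and Control amphetamine mice had 483.4, 498.6, 504.5, 510.6 and 582.2 CPM. High-Active saline mice had 376.5, 424.9, 445.8, 452.4 and 468.4 CPM, and High-Active amphetamine mice had 422.3, 451.9, 480.2, 528.3 and 533.6 CPM. Of 10 amphetamine-treated mice, 6 were above the highest saline-treated mouse. The amphetamine log2 fold change was 0.16 (SE 0.0502, interval 0.05 to 0.26), a fold of 1.12, with an unadjusted p of 0.00494 and an FDR of 0.221. DESeq2 gave 0.16 with an adjusted p of 0.0805, and the likelihood-ratio test 0.16 with 0.144. Without High-Active amphetamine mouse 415 the value was 0.18 (FDR 0.079), and over all alternatives the adjusted p ran from 0.079 to 0.958. Within each line the value was 0.16, and the interaction was -0.01 (interval -0.22 to 0.20). The line log2 fold change was -0.09 (SE 0.0502, FDR 0.264).

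**Figure D2:**
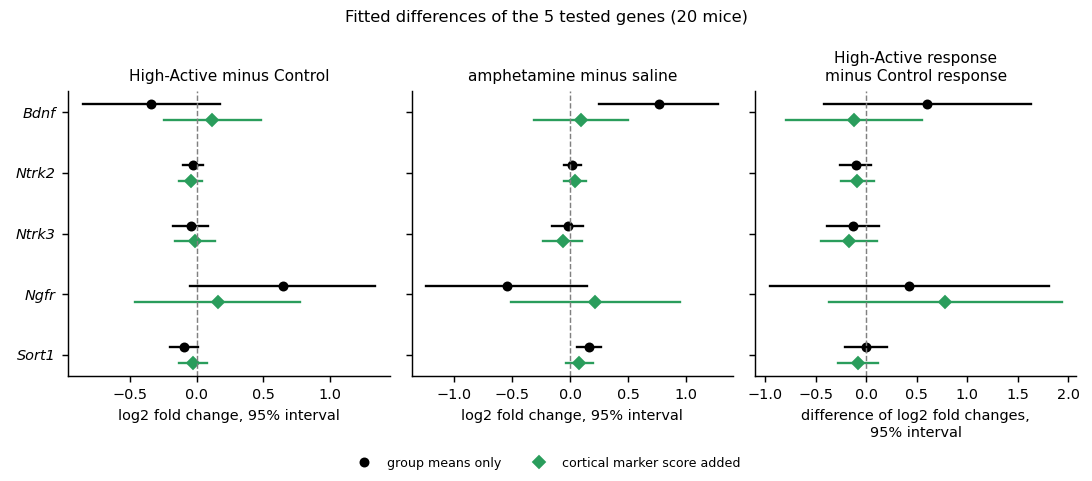
Log2 fold change (x axis) with its 95% interval for the 5 tested genes in the fit of group means (black) and in the fit with the cortical marker score added (green), for line, amphetamine and their interaction. With group means alone the amphetamine intervals of Bdnf (0.25 to 1.28) and Sort1 (0.05 to 0.26) lay above 0, and with the score added all intervals included 0.

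Markers of another tissue moved with these differences. The striatum was cut away from the cortex by hand, and 9 markers of cortical excitatory neurons were measured in every mouse, with 0 of them at 0 in any library. Their summed level was 296 to 829 CPM in Control saline, 607 to 831 in Control amphetamine, 163 to 342 in High-Active saline and 217 to 968 in High-Active amphetamine mice. Of the 9, 3 were called lower in High-Active mice, against 6.9% of all genes tested. For amphetamine 0 were called, against 0.0%. An unadjusted p under 0.05 for amphetamine was found in 8, all 8 higher, against 12.5% of all genes. Slc17a7, the vesicular glutamate transporter of cortical neurons, had an amphetamine log2 fold change of 1.03 (FDR 0.204). Fewer cells of a type and less RNA per cell cannot be told apart in such libraries. The markers of striatal projection neurons were high in all mice (8 of 8, summed 3565 to 5676 CPM). The quasi-likelihood test called 0 of these 8 for line, against 14.5% of all genes, with 1 at an unadjusted p under 0.05, against 26.1%. Of the 8, 7 were lower in High-Active mice.

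Markers of other cell types were also compared between the lines. Of all genes tested, 14.5% were called for line (7.63% higher in High-Active mice) and 26.1% had an unadjusted p under 0.05. Of 6 oligodendrocyte markers, all 6 were higher in High-Active mice and 2 were called, Mobp at 0.33 (FDR 0.0206) and Mbp at 0.26 (FDR 0.0888), with summed levels of 3675 to 6187 CPM in Control and 5104 to 6858 CPM in High-Active mice. Of 6 vascular and meningeal markers, 3 were higher and 3 lower in High-Active mice, with a median log2 fold change of -0.03. Among them 1 was called, Rgs5 at 0.63 (FDR 0.00459). Summed levels were 106 to 155 CPM in Control and 138 to 183 CPM in High-Active mice. Of 4 choroid plexus markers 0 were called for line, with 0 at an unadjusted p under 0.05, and their summed level ran from 4.64 to 855 CPM over all mice. No marker of these lists was called for amphetamine, where 0.0% of all genes were. The part of these cells in the differences of the 6 genes was not tested.

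A cortical marker score, the mean of the standardized log2 CPM of the 9 markers, was compared with each member. Within groups (group means removed, 20 mice, values shuffled within groups, 12 relations), Bdnf rose with the score. Pearson's r was 0.795 with a permutation p of 6e-05 and an adjusted p of 0.00072, Spearman's rho was 0.75 (permutation p 0.0004), and r without the 2 mice farthest from the median score was 0.687. Ngfr fell with it (r = -0.64, adjusted permutation p 0.00604, rho = -0.635, r = -0.631 without those 2 mice). For Sort1, r was 0.533 (adjusted permutation p 0.0677) and dropped to 0.309 without 2 mice, so it rests on them. Ntf3, Ntrk2 and Ntrk3 had r of 0.136, -0.208 and 0.224, with adjusted permutation p of 0.72, 0.465 and 0.502. Level and score come from the same libraries. Removing group means was chosen after seeing the data, as were the comparison of full brothers and the cholinergic marker score given further on.

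Within a line, both treatments were pooled and values were shuffled over all 10 mice, so these relations include any difference between treatments. The High-Active mice (n = 10) gave r = 0.922 for Bdnf and the score (permutation p 6e-05, adjusted p 0.00072 over 12 relations, rho = 0.927 with permutation p 0.00039, r = 0.769 without the 2 farthest mice). The Control mice (n = 10) gave r = 0.736 (permutation p 0.0159, adjusted 0.0636, rho = 0.697 with permutation p 0.0309, r = 0.553 without 2). For Ngfr the values were -0.774 in Control mice (adjusted permutation p 0.0556, -0.466 without 2) and -0.492 in High-Active mice (adjusted permutation p 0.297). For Sort1 they were 0.611 (adjusted permutation p 0.155) and 0.708 (adjusted permutation p 0.0658, 0.244 without 2). For Ntf3, Ntrk2 and Ntrk3 they lay between -0.426 and 0.275, with adjusted permutation p of 0.369 or higher. The value of Ntrk2 in High-Active mice was the -0.426, with rho = -0.564 (permutation p 0.0965) and r = -0.711 without the 2 farthest mice.

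With the score added to the fit, the amphetamine log2 fold change of Bdnf was 0.09 (SE 0.192, FDR 0.981) in place of 0.76, and its line value 0.12 (SE 0.173, FDR 0.792) in place of -0.34. Sort1 gave 0.08 (SE 0.0549, FDR 0.958) for amphetamine and -0.03 (FDR 0.847) for line. Ngfr gave 0.16 (SE 0.294, FDR 0.844) for line and 0.21 (SE 0.347, FDR 0.981) for amphetamine. Ntrk2 and Ntrk3 moved by less than 0.05. With the score, 512 of 14792 genes were called for line, against 2149 without it, and 0 for amphetamine. The score was itself higher in amphetamine-treated mice (mean 0.432, range -1.11 to 1.38) than in saline-treated mice (mean -0.432, range -1.42 to 1.08), and beyond this fit the part of cortical RNA in the differences was not tested.

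**Figure D3:**
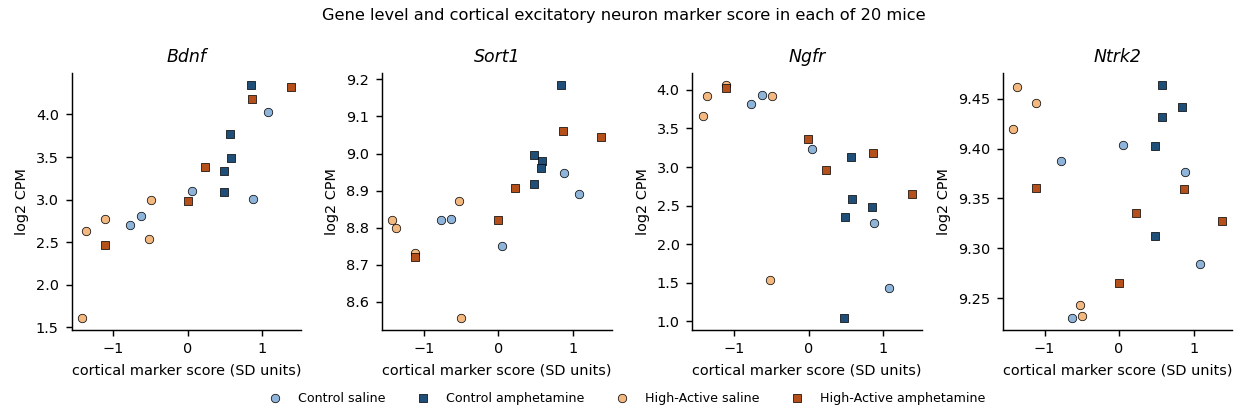
Log2 CPM of Bdnf, Sort1, Ngfr and Ntrk2 (y axes) against the cortical marker score (x axis, mean of standardized marker levels) in the 20 mice, coloured by group. Bdnf climbs with the score (r = 0.795 within groups), Ngfr declines (r = -0.64), and Ntrk2 is shown for comparison (r = -0.208).

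Ngfr was also compared with 3 cholinergic neuron markers measured of 4 listed, whose summed level was 57.4 to 94.7 CPM in Control saline, 63.3 to 79.6 in Control amphetamine, 66.9 to 119 in High-Active saline and 61.0 to 91.4 in High-Active amphetamine mice. None of the 3 was called by the quasi-likelihood test for line, amphetamine or interaction, against 14.5%, 0.0% and 0.0% of all genes. An unadjusted p under 0.05 was found in 1, for amphetamine, against 12.5% of all genes. Within groups Ngfr rose with the score of these markers (r = 0.749, adjusted permutation p 0.00402, rho = 0.699, r = 0.582 without 2 mice). Bdnf ran the other way within groups (r = -0.62, adjusted permutation p 0.0184). With both treatments of a line pooled, r for Ngfr was 0.804 in Control mice (unadjusted permutation p 0.00521) and 0.668 in High-Active mice (0.03). Whether cholinergic RNA has a part in the Ngfr differences was not tested.

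In 6 families both treatments were present (2 Control, 4 High-Active), which allowed full brothers, not always of the same litter, to be compared, with saline-treated brothers averaged where there were 2. Families were read from the recorded sire and dam, whereas the study's methods describe each mouse as from a different family. Bdnf was higher in the amphetamine-treated brother in 4 of 6 families, with a mean difference of 0.72 ± 0.92 on the log2 scale (SD, n = 6, exact two-sided sign-flip p 0.188, where the smallest possible is 0.0312). The family differences were -0.54 and 1.54 in Control, and 1.62, 1.37, -0.07 and 0.39 in High-Active mice. Their sign matched that of the cortical marker score, from the same libraries, in 6 of 6 families, and that of Ngfr was opposite to it in 6 of 6. The sign matched in 4 of 6 families for Sort1 and for Ntrk3, in 3 for Ntf3 and in 2 for Ntrk2. Ngfr differed by -0.07 ± 1.58 (exact p 0.875), with 4 families negative. Sort1 differed by 0.16 ± 0.21 (exact p 0.188), with 4 positive. Ntrk2, Ntrk3 and Ntf3 gave exact p of 0.406, 0.375 and 0.594.

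**Figure D4:**
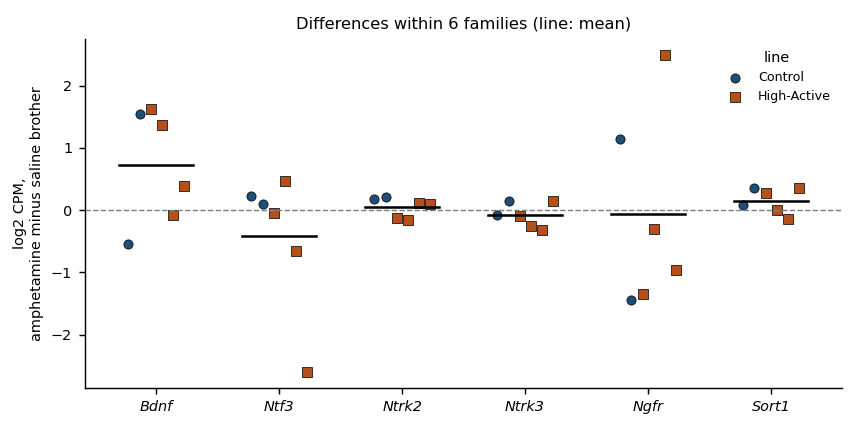
Log2 CPM of the amphetamine-treated mouse minus that of its saline-treated full brothers (y axis) for each gene, 1 point per family, with the mean over 6 families as a bar. Bdnf ranged from -0.54 to 1.62 and Ngfr from -1.45 to 2.49, each on both sides of 0, whereas Ntrk2 stayed between -0.16 and 0.21.

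Correlations between members are given as a description, without a test. Over 20 mice with group means removed, the highest correlation between members was 0.765 for Ntrk3 and Sort1, followed by 0.484 for Bdnf and Sort1 and 0.426 for Ntrk2 and Ngfr. Bdnf correlated with its receptor gene Ntrk2 at -0.0432 and with Ngfr at -0.271. Across all genes tested, those whose pattern was most like Bdnf were Nptxr (r = 0.926), Rap2a (0.924) and Dnm1 (0.922). For Ngfr they were Shh (0.956), Tacr3 (0.942) and Dnm3 (0.934), and for Sort1 they were Mpp2 (0.928), Fbxo41 (0.921) and Fmnl1 (0.904). For Ntrk2 they were Sacm1l (0.834), Atxn2 (0.78) and Tmppe (0.772), and for Ntrk3 they were Cacna1a (0.867), Nfat5 (0.841) and Grin2a (0.839). For Ntf3, with its few reads, they were Gm9144 (0.82), Rpusd3 (0.785) and Babam1 (0.772). These are the 3 highest of 14792 values each, over 20 mice.

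Around the 6 genes, 53 other genes of the pathway were read, of which 52 were tested. For line, 7 of the 52 were called (13.5%, against 14.5% of all genes), 4 higher and 3 lower in High-Active mice. The median log2 fold change of the 52 was 0.01 beside 0.00 over all genes. For amphetamine the quasi-likelihood test called 0, with 10 at an unadjusted p under 0.05 (19.2%, against 12.5%), and for the interaction 0, with 1 (1.92%, against 2.97%).

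Among 5 regulators of Bdnf transcription, 1 was called higher and 1 lower in High-Active mice, where 7.63% and 6.9% of all genes were. Rest, a repressor of neuronal genes that is known to act on Bdnf, was at 5.94 ± 0.652 CPM in Control and 7.54 ± 0.983 CPM in High-Active mice (SD, n = 10 each). Its log2 fold change was 0.34 (SE 0.0794, FDR 0.0149), called in 20 of 20 fits that left out 1 mouse. Crtc1, a coactivator of CREB, had a log2 fold change of -0.16 (SE 0.0587, FDR 0.0887) and was called in 8 of those 20 fits. With the cortical marker score added, Rest was at 0.21 (FDR 0.152) and Crtc1 at -0.11 (FDR 0.463), neither called. That fit called 512 of 14792 genes for line, against 2149 without the score. Over 10 alternatives the FDR of Rest reached 0.271 and that of Crtc1 0.463.

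Of 11 genes for the processing and release of precursors, 1 was called higher in High-Active mice and 0 lower, against 7.63% and 6.9% of all genes. Hap1, a huntingtin partner known to take part in BDNF transport, was at 249.9 ± 58.3 CPM in Control and 338.5 ± 89.7 CPM in High-Active mice (SD, n = 10 each), a log2 fold change of 0.43 (SE 0.136, FDR 0.0578). It lost the call without High-Active amphetamine mouse 415 (0.35, FDR 0.115) or without High-Active saline mouse 871 (0.39, FDR 0.111). Those fits called 1381 of 14762 and 1405 of 14749 genes for line, against 2149 of 14792 with all mice. With the score added, where 512 of 14792 genes were called for line, Hap1 was at 0.23 (FDR 0.422).

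Of 16 adaptors that bind activated Trk receptors, 1 was called in each direction, where 7.63% of all genes were called higher and 6.9% lower. The docking protein gene Gab1 was higher in High-Active mice by 0.24 (SE 0.0784, FDR 0.0636), called in 15 of 20 fits without 1 mouse. Shc2 was lower, at -0.14 (SE 0.0409, FDR 0.0462), and was called in all 20. With the score added, where 512 of 14792 genes were called for line, Gab1 was at 0.17 (FDR 0.359) and Shc2 at -0.12 (FDR 0.252). Over 10 alternatives the FDR reached 0.45 for Gab1 and 0.507 for Shc2.

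Of 10 partners of p75NTR, 1 was called in each direction, where 7.63% of all genes were called higher and 6.9% lower. Rtn4r, the Nogo receptor gene, was at 19.8 ± 6.67 CPM in Control and 13.9 ± 9.35 CPM in High-Active mice, a log2 fold change of -0.65 (SE 0.237, FDR 0.0932), called in 7 of 20 fits without 1 mouse. It had the pattern of Bdnf (r = 0.807 with group means removed, 20 mice). Saline-treated mice had 10.2 to 26.9 CPM in the Control and 5.45 to 11.7 CPM in the High-Active line. Amphetamine-treated mice had 18.5 to 30.65 CPM in the Control and 9.34 to 34.3 CPM in the High-Active line. The interaction of Rtn4r was 1.04 (quasi-likelihood test, unadjusted p 0.0404) and was not called. With the score added, where 512 of 14792 genes were called for line, the line value of Rtn4r was -0.10 (FDR 0.536). Ndn, the necdin gene, was at 0.28 (SE 0.102, FDR 0.0971), called in 6 of 20 fits, and at 0.15 (FDR 0.512) with the score. Over 10 alternatives the FDR reached 0.893 for Rtn4r and 0.583 for Ndn.

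The sortilin family (4 other genes) and 6 genes known to respond to BDNF were also tested. For line, amphetamine and interaction the quasi-likelihood test called 0 of them, against 14.5%, 0.0% and 0.0% of all genes. In each, 0 had an unadjusted p under 0.05, against 26.1%, 12.5% and 2.97%. The BDNF-responsive genes had a median amphetamine log2 fold change of 0.07 beside -0.01 over all genes, with 4 higher and 2 lower. Their interaction was negative in 6 of 6, with a median of -0.35 beside 0.00 over all genes, of which 7325 of 14792 were negative. Other lists also had a single sign. All 4 sortilin family genes, 8 striatal projection neuron, 6 astrocyte and 3 cholinergic markers were negative. All 9 cortical and 6 vascular and meningeal markers were positive. The lists were not tested as sets.

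**Figure D5:**
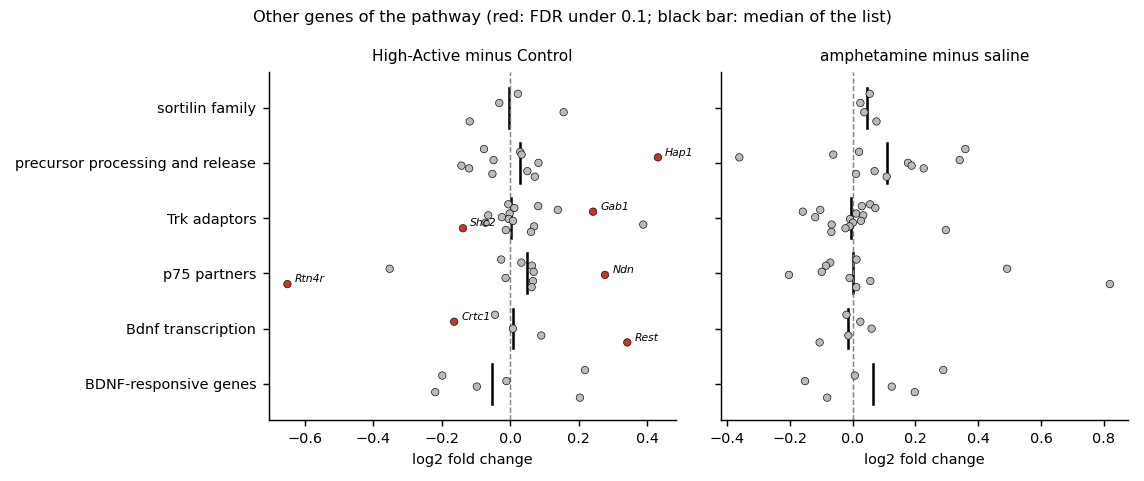
Log2 fold change (x axis) of the other pathway genes by list (rows), for line and for amphetamine, 1 point per gene, with the list median as a bar and genes at an FDR under 0.1 in red. For line 7 of 52 tested genes (13.5%, against 14.5% of all genes) are red, from Rtn4r at -0.65 to Hap1 at 0.43. For amphetamine none is.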

How the data were processed

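Striatal RNA of 20 mice was sequenced as stranded paired 100-base reads, 1 library per mouse. Per the labels, the authors aligned reads with TopHat2 2.0.10 and Bowtie2 2.1.0 to GRCm38 and deposited raw counts per Ensembl gene from HTSeq 0.6.1. Library totals on genes ranged from 32388971 to 53710713 (median 41703853.5), and 15.97% to 17.489% of tallied reads named no gene and were left out. No files were identical between mice. Symbols and exon lengths came from GENCODE vM21, with 37607 identifiers matched.

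Counts were fitted with edgeR 4.0.16 (quasi-likelihood, TMM, genes over 1 CPM in at least 3 mice, Benjamini-Hochberg FDR under 0.1) in R 4.3.3, tested on simulated data. Log2 CPM used a prior count of 2. DESeq2 1.42.0, limma 3.58.1 and other alternatives are given in the closing section. Relations used 100000 permutations. Named pathway genes were those under the FDR for line, at most 3 per list. Likeness was Pearson's r over 20 mice after removing group means. The members and lists were chosen with earlier results of these data known. Some genes of the pathway are not reported here.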

Additional observations from a re-analysis of the deposited data

Results flagged for a closer look

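In 24 sets of 5 mice (6 genes in 4 groups), the gap of the highest or lowest mouse to its neighbour was compared with the range of its group (Dixon's criterion, 0.71 for 5 mice), and 2 mice stood apart, where chance alone gives about 1 in 20 groups. Ngfr in High-Active saline mouse 886 was at a log2 CPM of 1.54 (2.86 CPM, 126 reads), a gap of 0.841 of the range. Ntf3 in Control amphetamine mouse 454 was at a log2 CPM of -1.88 (0.223 CPM, 9 reads), a gap of 0.742 of the range.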

How the results depend on the processing

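Over RLE scaling, both other low-count filters, limma-voom with a family block, family sums, single treatments or lines and the cortical score, where each could be fitted, the count of members called stayed at 0 for line, amphetamine and interaction. Of all genes, 2147 of 14792 were called for line with RLE scaling, 1872 with limma-voom, 609 with family sums and 512 with the cortical score. The filter on 5 mice gave 2089 of 14533, and no filter 1893 of 26116. Saline-treated mice alone gave 553 of 14792 and amphetamine-treated mice alone 193. For amphetamine and interaction these fits called 0 genes. The count of members called for amphetamine was 2 with DESeq2 and 1 with the likelihood-ratio test. Leaving out 1 mouse gave 0 to 1 for line (Ngfr, without High-Active saline mouse 886) and 0 to 2 for amphetamine (Bdnf and Sort1, without High-Active amphetamine mouse 415), and 0 in every fit for the interaction.

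Signs turned as follows, none of them in a called value. With the cortical score, Bdnf was 0.1191 for line and -0.1217 for the interaction, and Ngfr 0.2149 for amphetamine. In saline-treated mice alone, the line value was 0.026 for Ntrk2 and 0.02393 for Ntrk3. The amphetamine value was -0.03468 for Ntrk2 in High-Active mice alone, and 0.04353 for Ntrk3 in Control mice alone. Sort1's interaction was 0.002116 without the filter. Leaving out 1 mouse moved it from -0.0503 to 0.04119, and Ntrk3's amphetamine value from -0.04916 to 0.01045. The causes were not tested. The groups share no replicate numbers, so no replicate block was fitted, and pairing rested on shared parents only. Ntf3 had 3 to 27 reads per mouse.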
